A study of Mus musculus with 6 samples.

Results

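The unfolded protein response and the endoplasmic reticulum (ER) chaperones were followed here through 32 genes picked by name, of the 45706 genes in the count table: 15 ER chaperones and folding enzymes, 7 genes of ER-associated degradation, 3 stress sensors together with the transcription factor gene Xbp1, and 6 genes of the ATF4 branch. One of them, Dnajb9, fell in the RBMS1 knockdown, to 0.545 of the control level (log2 fold change -0.87, SE 0.18, n = 3 against 3, edgeR adjusted p = 0.0842), a call that held in 9 of 16 alternative settings (adjusted p from 0.00392 to 0.372). The same edgeR test called 1.22% of all 11440 genes tested. Calr, Herpud1 and Sdf2l1 were also lower in all 3 knockdown samples than in any control, as were 9.55% of all genes tested, and did not pass the edgeR test. Calr and Herpud1 had log2 fold changes of -0.49 (SE 0.16, edgeR adjusted p = 0.236) and -0.64 (SE 0.16, edgeR adjusted p = 0.136), and both lie on chromosome 8, 90.1% of whose tested genes had negative values; once chromosome medians were taken off, they stood at -0.10 and -0.25. The chief chaperone Hspa5, the transcription factors Xbp1, Atf4 and Ddit3, and the sensors Ern1, Atf6 and Eif2ak3 did not pass the test either. The 6 genes of the ATF4 branch were spread widely among the knockdown samples, and each of the 6 was lowest in knockdown 3 among them, as were 33.0% of all genes tested. Control 3 was likewise the lowest control in 5 of the 6. Control 1 was the lowest control in 11 of the 15 chaperones, and control 2 in 5 of the 6 tested degradation genes.

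The samples were cultures of the mouse 3T3-L1 line, a fibroblast line that turns into fat cells when given an adipogenic mixture, here IBMX, insulin, dexamethasone and rosiglitazone. All 6 were collected at day 7 and all carried a lentiviral short hairpin RNA (shRNA) and had been selected with puromycin: 3 expressed a scrambled control shRNA in cells labelled wild type and 3 an shRNA against Rbms1, the gene of an RNA-binding protein. The RNA of each culture was sequenced and estimated counts per gene were deposited. The study's methods call the samples of a group biological replicates; neither they nor the labels say whether these came from separate infections, so p-values measure the spread between these samples.

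Total counts ran from 3142695 to 11073098 per sample. Control 2 was the shallowest sample and had 43.0% of its counts in genes derived from ribosomal RNA, against 8.13% to 17.8% in the other 5. Rbms1 stood at 113, 102 and 99.6 CPM (counts scaled to a common library size) in the controls and at 49.2, 61.4 and 84.0 CPM in knockdown 1, 2 and 3. Its groups did not overlap, with a log2 fold change of -0.69 (SE 0.20) that missed the threshold of 0.1 (edgeR adjusted p = 0.185). The study reported the knockdown at the protein level by immunoblot. The labels call the cells fibroblasts. The adipocyte gene Lpl, which encodes lipoprotein lipase, ran from 5350 to 14510 CPM over the 6 samples and the adipokine gene Adipoq from 1056 to 2649 CPM, with the lipid droplet and fatty acid genes Plin1 and Fabp4 at 348 to 645 CPM and 2127 to 4203 CPM. The fibroblast collagen genes Col1a1 and Col3a1 ran from 875 to 3292 CPM and from 2090 to 3788 CPM, the preadipocyte gene Dlk1 from 67.7 to 361 CPM and Thy1 from 21.6 to 57.8 CPM. The macrophage and endothelial markers Ptprc and Adgre1 had no count in any sample while Pecam1 and Cdh5 stayed below 2 CPM. Of the 10 such markers Cd68 alone had enough counts to be tested, at 0.688 to 3.27 CPM, with overlapping groups and no call by edgeR. The summed level of 10 adipocyte markers was 22270 to 25320 CPM in the controls and 11510 to 20620 CPM in the knockdown samples, and all 10 had negative log2 fold changes, none of which passed the edgeR test and 1 of which (Lpl, adjusted p = 0.0321) passed DESeq2. The summed level of 10 fibroblast and preadipocyte markers was 12350 to 14710 CPM and 8201 to 16940 CPM, with 7 of the 9 tested below 0, none called by edgeR and 1 by DESeq2 (Pdgfra, adjusted p = 0.0275, named after its values were seen). The part of these differences in the values below was not tested, and in bulk RNA a smaller share of fat cells and less RNA per fat cell cannot be told apart. By oil red O, a lipid stain, the study reported no difference in lipid content. It reported PPARγ and adiponectin as unaffected and C/EBPα, HSL and ATGL as lower, ATGL only as protein.

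When unfolded proteins build up in the ER, 3 membrane proteins sense them: IRE1 (gene Ern1), which splices the Xbp1 mRNA so that it encodes an active transcription factor; ATF6, which is cut in the Golgi and enters the nucleus; and PERK (gene Eif2ak3), which phosphorylates eIF2alpha, slows translation and favours synthesis of ATF4. ATF6 and XBP1 raise the genes of ER chaperones and of ER-associated degradation, the route by which misfolded proteins are sent back to the cytosol and destroyed, while ATF4 raises genes of amino acid supply and, under lasting stress, of growth arrest and death. Fat cells secrete large amounts of adipokines and lipoprotein lipase, which fold in the ER.

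Of the 32 genes, 31 had enough counts to be tested. Derl3, a homologue of the degradation factors Derl1 and Derl2, had no count in any of the 6 samples, where 3 counts, the limit that a count of 0 allows, would be 0.220 to 1.49 CPM depending on the sample. Of all 11440 genes tested, edgeR's quasi-likelihood test called 140, or 1.22%, with the threshold set at an adjusted p of 0.1; the knockdown was lower in 104 of them, 0.909% of the genes tested; scaled by library sizes alone in place of TMM, 126 were called and 42 of them were lower. Among the 31 genes 1 was called, Dnajb9, which is lower. At an unadjusted p under 0.05 there were 3 (Dnajb9, Calr and Herpud1), where 12.4% of all genes tested passed that mark. In 4 genes (Dnajb9, Calr, Herpud1 and Sdf2l1) the 2 groups did not overlap, all 4 lower in the knockdown and none higher. Over all genes tested the groups did not overlap for 18.5%, with 9.55% lower and 8.96% higher. A second count test, DESeq2, called 3 of the 31, the same ones as the unadjusted mark, and 3.22% of all 13374 genes to which it gave an adjusted p. The median log2 fold change of the 31 genes was -0.06, against 0.0044 over all genes tested, with 18 below 0 and 13 above.

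**Figure D1:**
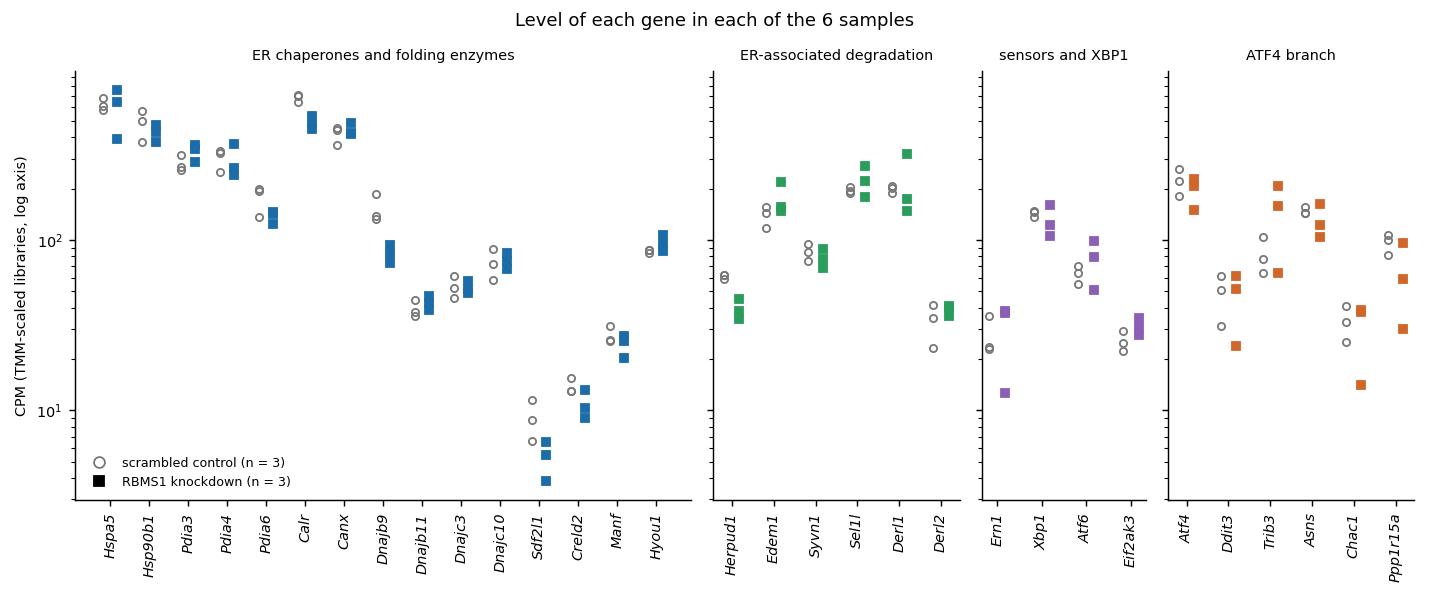
Level of each of the 31 detected genes in CPM (log axis) in the 3 scrambled control samples (open circles) and the 3 RBMS1 knockdown samples (filled squares), by group of genes. Dnajb9, Calr, Herpud1 and Sdf2l1 are the genes whose 2 groups of points do not overlap.

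Per kilobase of annotated exon, a scale on which genes can be compared, Calr had the highest control level at 238 CPM per kb, followed by Hspa5 at 147 CPM per kb. The lowest level among the detected genes was that of the sensor gene Ern1, at 3.35 CPM per kb. Depth differed widely between genes within a group: among the chaperones Hspa5 had 1381 to 6483 counts per sample and Sdf2l1 23 to 89, and beside the 72 to 317 counts of Ern1, Xbp1 had 273 to 1670.

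Promoters of these genes are known for a few short elements, and the sequences below show which members carry them. The RefSeq promoter table (build GRCm38.p6) gives 300 bases per gene start, from 250 before to 50 after it, and holds 28 of the 32 genes (not Hyou1, Atf6, Derl1 and Manf). Both strands were searched for 4 elements by their letters, and no 2 matches in a member's window overlapped. The ER stress response element, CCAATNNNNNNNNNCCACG, bound by ATF6 together with NF-Y, was in 9 of the 28 genes against 0.119% of all 32851 windows. Its carriers were the chaperone genes Hspa5, Hsp90b1, Pdia6, Calr, Canx, Dnajc3 and Creld2 and the degradation genes Syvn1 and Derl3. All 10 copies, Hsp90b1 having a pair of them, lay before the start, between 26 and 212 bases from it. The shorter ER stress response element II, ATTGGNCCACG, was in Herpud1 and Dnajb11 and in 0.0365% of all windows. The C/EBP-ATF response element, TGATGNAA, bound by ATF4 dimers, was in Trib3, Asns, Chac1 and Herpud1 and in 3.97% of all windows. The unfolded protein response element, TGACGTGG, bound by XBP1, was in none of the 28 and in 0.676% of all windows. Shown are 4 chaperone genes with the first element, among them the carriers with the lowest and the highest fold change (Calr and Canx), both carriers of element II, and the 3 ATF4 branch carriers, each written 5′ to 3′ on the strand of the element with the element in capitals:
Hspa5, chr2:34772020-34772048, plus strand: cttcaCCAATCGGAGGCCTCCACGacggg
Calr, chr8:84847070-84847098, plus strand (gene on minus): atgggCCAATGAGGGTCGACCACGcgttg
Pdia6, chr12:17266486-17266514, plus strand: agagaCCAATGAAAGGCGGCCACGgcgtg
Canx, chr11:50325795-50325823, minus strand: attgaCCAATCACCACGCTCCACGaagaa
Herpud1, chr8:94386372-94386392, plus strand: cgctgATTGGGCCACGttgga
Dnajb11, chr16:22857847-22857867, plus strand: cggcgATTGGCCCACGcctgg
Trib3, chr2:152344034-152344051, plus strand (gene on minus): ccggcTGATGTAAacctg
Asns, chr6:7693220-7693237, minus strand: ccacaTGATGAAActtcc
Chac1, chr2:119351044-119351061, minus strand (gene on plus): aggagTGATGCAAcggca

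The 8 tested carriers of the ER stress response element had log2 fold changes from -0.49 (Calr) to 0.08 (Canx) with a median of -0.15, and 7 of the 8 were below 0. None of the 8 passed the edgeR test. The carriers of element II lay on either side of 0, Herpud1 at -0.64 and Dnajb11 at 0.11. Herpud1 was the one gene of the 28 with 2 kinds of element, and its 250 bases before the start (chr8:94386179-94386428, plus strand), with the C/EBP-ATF response element read on the opposite strand first and element II second in capitals, are:
Herpud1: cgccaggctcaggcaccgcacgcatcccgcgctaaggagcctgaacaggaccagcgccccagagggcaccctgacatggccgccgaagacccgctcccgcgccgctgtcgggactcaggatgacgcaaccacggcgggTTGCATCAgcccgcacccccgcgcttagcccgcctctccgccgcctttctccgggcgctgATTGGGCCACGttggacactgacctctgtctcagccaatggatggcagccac
The window of Dnajb9, the gene that was called, held none of the 4 elements. That window, chr12:44210019-44210318, lies wholly within the gene as GENCODE M21 annotates it (chr12:44205559-44210326, minus strand), since GENCODE places a start farther upstream. A match of letters is a description of the window and no match says only that these letters were not in it.

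The sensors and Xbp1 come first in the pathway. Ern1 stood at 22.8, 35.7 and 23.6 CPM in the controls and at 38.2, 37.1 and 12.7 CPM in the knockdown samples. It was above every control in knockdown 1 and 2 and below every control in knockdown 3, and its log2 fold change of 0.11 (SE 0.38, 95% interval -0.74 to 0.96) had an edgeR adjusted p of 0.938. Atf6 had a like order, with 54.8, 70.5 and 63.7 CPM in the controls and 98.3, 78.9 and 50.8 CPM in knockdown 1, 2 and 3. Its log2 fold change was 0.27 (SE 0.23, edgeR adjusted p = 0.690). Atf6 lies on chromosome 1, where the median of the tested genes was 0.25 and 21.6% were below 0. With chromosome medians removed it stood at 0.03. Eif2ak3, which encodes PERK, stood at 29.3, 22.3 and 24.9 CPM and at 27.6, 34.9 and 30.7 CPM, overlapping groups with a log2 fold change of 0.28 (SE 0.18, edgeR adjusted p = 0.579). Eif2ak3 lies on chromosome 6, whose median was 0.19, and with chromosome medians removed it stood at 0.10. The median of the sensors and Xbp1 was then 0.06 in place of 0.19. Xbp1 stood at 148, 136 and 146 CPM and at 160, 106 and 123 CPM, and its log2 fold change was -0.15 (SE 0.17, 95% interval -0.54 to 0.25, edgeR adjusted p = 0.784). Knockdown 2 and 3 lay below every control for Xbp1 and knockdown 1 above every control. The counts are per gene, so the spliced and unspliced forms of Xbp1 mRNA, and the activity of the sensors themselves, were not measured.

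Among the 15 chaperones and folding enzymes, 1 fell, none rose and 14 did not pass the test, where 1.22% of all genes tested were called; the median log2 fold change was -0.06, with 10 below 0. Dnajb9, also called ERdj4, is a J-domain partner of the chaperone BiP inside the ER and a known XBP1 target. It stood at 133, 139 and 187 CPM in the controls and at 94.0, 83.2 and 73.1 CPM in the knockdown samples, 153 ± 29.2 against 83.5 ± 10.4 (mean ± SD, n = 3 each). All 3 knockdown samples lay below the lowest control, and the 95% interval of the log2 fold change ran from -1.28 to -0.47. Its counts were 280 to 1084 in the controls and 654 to 996 in the knockdown samples, and the shallow control 2 gave the middle value of the controls. Settings that lost the call included libraries scaled by their sizes alone (adjusted p = 0.372) and leaving out control 1, 2 or 3 (0.151, 0.238 and 0.298) or knockdown 2 or 3 (0.254 and 0.143). Over 16 alternative settings its edgeR or DESeq2 adjusted p ran from 0.00392 to 0.372, 9 of the 16 passed the threshold, and the sign was negative in all 16.

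**Figure D2:**
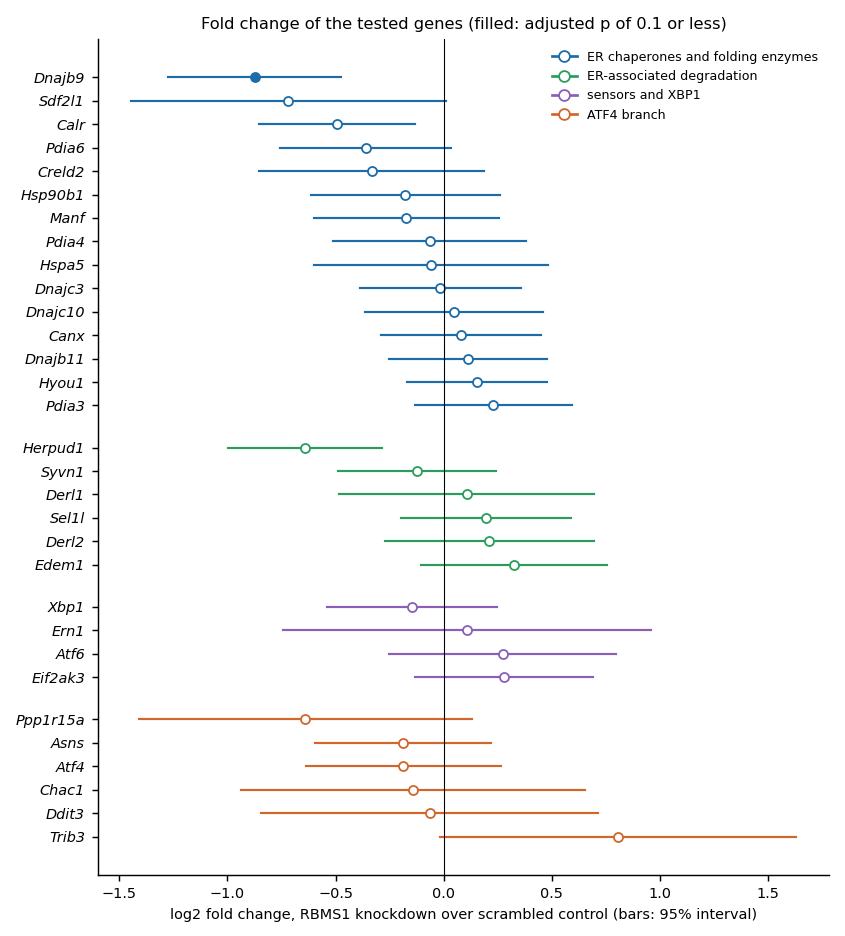
Log2 fold change of each tested gene, RBMS1 knockdown over scrambled control, with its 95% interval from edgeR's quasi-likelihood fit (n = 3 against 3). Dnajb9 (filled) is the only gene of the 31 that passed the threshold of 0.1; the intervals of Calr and Herpud1 also lie below 0.

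Calr encodes calreticulin, a lectin chaperone that holds newly made glycoproteins. Its levels were 646, 713 and 698 CPM in the controls and 446, 481 and 534 CPM in the knockdown samples, which all lay below the controls. The gene lies on chromosome 8 (chr8:84841850-84846934, minus strand), where 624 genes were tested, their median log2 fold change was -0.38 and 90.1% of them were below 0. With each chromosome's median removed, Calr stood at -0.10 (edgeR adjusted p = 0.882). Its adjusted p over all 16 alternatives ran from 0.0810 to 0.882 and passed the threshold in 1, DESeq2. Canx, the membrane-bound relative of calreticulin, stood at 361, 443 and 456 CPM and at 489, 418 and 425 CPM, overlapping groups with a log2 fold change of 0.08 (SE 0.16, 95% interval -0.29 to 0.45, edgeR adjusted p = 0.888). Canx lies on chromosome 11.

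Hspa5, which encodes BiP, the central ER chaperone and the one that holds the sensors inactive, stood at 577, 685 and 609 CPM in the controls and at 645, 758 and 392 CPM in knockdown 1, 2 and 3. The first 2 knockdown samples lay among or above the controls and the third below all of them, for a log2 fold change of -0.06 (SE 0.24, 95% interval -0.60 to 0.48, edgeR adjusted p = 0.948). Hsp90b1, the ER member of the HSP90 family known as GRP94, stood at 374, 571 and 500.0 CPM and at 429, 472 and 376 CPM. All its knockdown values fell inside the range of the controls. Hyou1, a large chaperone that acts as nucleotide exchange factor for BiP, had a log2 fold change of 0.16 (SE 0.14), with 83.7 to 87.3 CPM in the controls and 85.8 to 107 CPM in the knockdown samples.

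The other J-domain partners of BiP did not follow Dnajb9 in value. Dnajb11 stood at 0.11 (SE 0.16), Dnajc3 at -0.02 (SE 0.17) and Dnajc10 at 0.05 (SE 0.18) on the log2 fold change scale, each with overlapping groups and none called by edgeR. The difference between Dnajb9 and these genes was not tested. Sdf2l1, which is found in complex with such J-domain proteins, stood at 6.57, 11.4 and 8.78 CPM in the controls and at 5.46, 3.86 and 6.53 CPM in the knockdown samples. The highest knockdown value lay just below the lowest control, the values rest on only 23 to 89 counts per sample, and the log2 fold change was -0.72 (SE 0.32, 95% interval -1.45 to 0.0089, edgeR adjusted p = 0.407).

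The protein disulfide isomerases, which form and rearrange disulfide bonds, lay on both sides of 0. Pdia6 stood at 137, 198 and 194 CPM and at 146, 124 and 142 CPM, a log2 fold change of -0.36 (SE 0.18, edgeR adjusted p = 0.446). Only the lowest control lay within the range of its knockdown values. Pdia3, which works with calnexin and calreticulin on glycoproteins, had 257 to 317 CPM in the controls and 289 to 360 CPM in the knockdown samples, a log2 fold change of 0.23 (SE 0.16), and Pdia4 was at -0.06 (SE 0.20). The secreted ER stress proteins Creld2 and Manf had log2 fold changes of -0.33 (SE 0.23) and -0.17 (SE 0.19), with overlapping groups and no call by edgeR.

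Of the 7 genes of ER-associated degradation 6 were tested, none passed the edgeR test, 4 had log2 fold changes above 0, and the median was 0.15. Herpud1 encodes a membrane protein of the ubiquitin ligase complex that exports misfolded proteins and is itself a strongly stress-induced gene. Its 3 controls lay close together at 61.9, 59.1 and 62.1 CPM and its knockdown samples at 45.0, 38.3 and 34.2 CPM. The groups were well apart, 61.0 ± 1.70 against 39.2 ± 5.44 CPM (mean ± SD, n = 3 each), and the 95% interval of the log2 fold change was -0.997 to -0.28. Like Calr it lies on chromosome 8 (chr8:94386438-94395377, plus strand), and with each chromosome's median removed it stood at -0.25 (edgeR adjusted p = 0.666). Its adjusted p over the 16 alternatives ran from 0.0425, without knockdown 1, to 0.666, and passed the threshold there and by DESeq2.

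**Figure D3:**
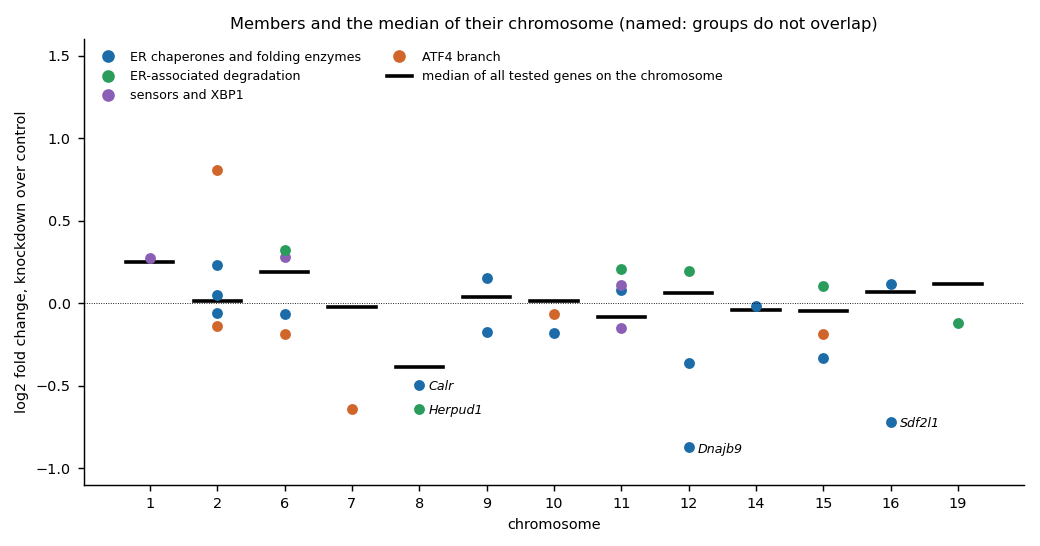
Log2 fold change of the 31 tested genes, RBMS1 knockdown over scrambled control, placed on the chromosome of each, with the median of all tested genes on that chromosome as a black bar. Chromosome 8, which holds Calr and Herpud1, has a median of -0.38; chromosome 12, which holds Dnajb9, has a median of 0.06.

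The partners of Herpud1 in that complex had values nearer to 0 or above it, a difference that was not tested. Syvn1, the ubiquitin ligase also called HRD1, had 94.7, 74.9 and 84.7 CPM in the controls and 88.8, 77.0 and 68.2 CPM in the knockdown samples, a log2 fold change of -0.12 (SE 0.16). With the chromosome medians removed Syvn1 stood at -0.23, about level with the -0.25 of Herpud1. Sel1l, the subunit that stabilises the ligase, had 189, 193 and 206 CPM and 271, 222 and 179 CPM, a log2 fold change of 0.20 (SE 0.17). Derl1, a channel-like factor of the export step, was far above the controls (209, 189 and 201 CPM) in knockdown 1 at 322 CPM and below them in knockdown 2 and 3 at 174 and 149 CPM. Edem1, which sorts glycoproteins for destruction, had the highest log2 fold change of the group at 0.33 (SE 0.19, 95% interval -0.11 to 0.76, edgeR adjusted p = 0.532), with 117 to 157 CPM in the controls and 148 to 219 CPM in the knockdown samples. Edem1 lies on chromosome 6, and with chromosome medians removed it stood at 0.15. Derl2 stood at 0.21 (SE 0.21), on 47 to 557 counts. Knockdown 1 was the highest of the knockdown samples in 5 of the 6 degradation genes, which it was for 37.3% of all genes tested. Without knockdown 1 the median of the 6 was -0.09.

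None of the 6 genes of the ATF4 branch passed the edgeR test; 5 had log2 fold changes below 0 and the median was -0.16. Atf4 stood at 261, 223 and 182 CPM in the controls and at 228, 208 and 150 CPM in the knockdown samples, a log2 fold change of -0.19 (SE 0.20, 95% interval -0.64 to 0.27, edgeR adjusted p = 0.760). ATF4 is made mainly by control of its translation, which these counts do not show. Ddit3, the gene of the stress factor CHOP, stood at 51.1, 61.0 and 31.3 CPM and at 51.6, 61.4 and 23.7 CPM. Its values were alike in samples 1 and 2 of both groups, and its log2 fold change was -0.07 (SE 0.35, edgeR adjusted p = 0.960).

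Trib3, a pseudokinase gene induced by ATF4 and CHOP, had the highest log2 fold change of all 31 genes at 0.81 (SE 0.37, 95% interval -0.02 to 1.63, edgeR adjusted p = 0.410). Its levels were 104, 63.5 and 77.4 CPM in the controls and 206, 159 and 64.0 CPM in the knockdown samples. Knockdown 1 and 2 lay above every control and knockdown 3 beside the lowest one. Without knockdown 3 the log2 fold change was 1.17 (edgeR adjusted p = 0.0598), and over the 16 alternatives its adjusted p ran from that value to 0.738, with no other alternative past the threshold. Ppp1r15a, the gene of GADD34, which returns eIF2alpha to its unphosphorylated state, went the other way in value, with controls between 81.2 and 107 CPM and knockdown samples at 59.1, 95.5 and 30.0 CPM, one of which lay within the range of the controls. Its log2 fold change was -0.64 (SE 0.34, edgeR adjusted p = 0.491). Asns, which makes asparagine, stood at 144, 156 and 143 CPM and at 163, 123 and 103 CPM, a log2 fold change of -0.19 (SE 0.18). Chac1, which degrades glutathione, stood at 41.2, 32.8 and 25.3 CPM and at 37.5, 38.7 and 14.1 CPM, a log2 fold change of -0.14 (SE 0.35).

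Of the 4 groups of members, the knockdown samples differed from each other most in this branch. Knockdown 3 was the lowest of the 3 knockdown samples in all 6 ATF4 branch genes, against 33.0% of all genes tested. Control 3 was the lowest of the controls in 5 of the 6, all but Trib3, against 29.4% of all genes tested. Other groups also had 1 control that was mostly the lowest. Control 1 was lowest in 11 of the 15 chaperones and control 2 in 5 of the 6 degradation genes, against 34.1% and 36.5% of all genes. Knockdown 3 was also the lowest knockdown sample in 4 of the 6 degradation genes. Taken as log2 of the level over the mean of the controls, the median of the 6 genes was 0.16, 0.045 and -0.26 in control 1, 2 and 3 and 0.12, 0.11 and -0.79 in knockdown 1, 2 and 3. The median ratio of the highest to the lowest knockdown sample was 2.67-fold over these 6 genes, 1.73-fold over the sensors and Xbp1, 1.40-fold over the degradation genes and 1.25-fold over the chaperones, where it was 1.42-fold over all genes tested that had counts in every sample. Among the controls the ATF4 branch was also the most spread of the 4 groups, at 1.53-fold against 1.26-fold for the chaperones. Ern1 and Hspa5, with ratios of 3.01-fold and 1.93-fold among the knockdown samples, were also lowest in knockdown 3. Knockdown 3 was the deepest sample, had the lowest share of counts in genes derived from ribosomal RNA (8.13%) and had the highest Rbms1 level of the 3 knockdown samples; the part of these in the result was not tested. Without knockdown 3 the median log2 fold change of the ATF4 branch was 0.09 in place of -0.16.

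**Figure D4:**
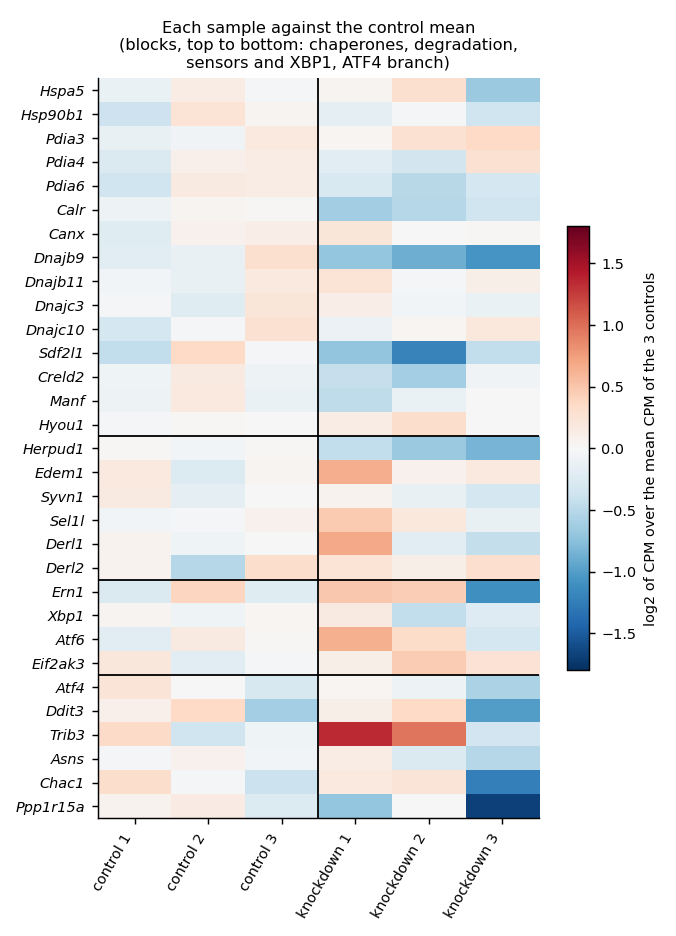
Log2 of the level of each gene in each sample over the mean level of the 3 controls (red higher, blue lower), with horizontal lines between the 4 groups of genes. All 6 genes of the ATF4 branch, at the bottom, are lowest in knockdown 3 among the knockdown samples, with a median of -0.79.

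Other genes of the same pathways were counted from lists by role, 83 genes in all, of which 80 were tested. None of the 80 passed the edgeR test, 11 had an unadjusted p under 0.05, where 12.4% of all genes did, and DESeq2 called 3, where it called 3.22% of all genes, so both counts were near the background. The median log2 fold change was 0.0005. Of 20 other folding, oxidation and glycan-processing genes the median was 0.10, and the smallest p-values belonged to Erp29, an ER folding factor, at 0.44 (SE 0.19, edgeR adjusted p = 0.387) and Mogs, the first glucosidase of glycan trimming, at 0.46 (SE 0.20, edgeR adjusted p = 0.393), both above every control in all knockdown samples. Of 16 other degradation genes the median was 0.0006, with Aup1, a lipid droplet and ER protein of the same route, at 0.36 (SE 0.15, edgeR adjusted p = 0.359). Mogs and Aup1 both lie on chromosome 6, and with chromosome medians removed they stood at 0.28 and 0.19. Of 12 tested genes of other sensors and eIF2alpha kinases the median was -0.04, with the interferon-induced kinase gene Eif2ak2 at 0.48 (SE 0.24, edgeR adjusted p = 0.458) and Mbtps1, the protease that cuts ATF6, on chromosome 8, at -0.25 (SE 0.14, edgeR adjusted p = 0.513). With chromosome medians removed Mbtps1 stood above 0, at 0.15 (edgeR adjusted p = 0.794).

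Of 32 tested genes among 34 further targets of ATF4 and the integrated stress response, 17 were below 0, 15 above, and the median was -0.07. Knockdown 3 was the lowest knockdown sample in 27 of the 32, against 33.0% of all genes tested, as it was in the 6 members of the branch. Control 3 was the lowest control in 9 of the 32. Among the 16 other degradation genes, 9 were lowest in knockdown 3. The ER oxidase gene Ero1a, of the folding list and named here after its values were seen, also had its lowest value there, at 1102, 1004 and 1199 CPM in the controls and 2526, 815 and 151 CPM in the knockdown samples. The smallest p-values belonged to Eif4ebp1, a translation repressor gene on chromosome 8, at -0.70 (SE 0.19, edgeR adjusted p = 0.161) and Vldlr, a lipoprotein receptor gene on chromosome 19, at -0.68 (SE 0.19, edgeR adjusted p = 0.169). Both were lower in all 3 knockdown samples than in any control. With chromosome medians removed Eif4ebp1 stood at -0.31 (edgeR adjusted p = 0.630) and Vldlr at -0.80 (edgeR adjusted p = 0.154). Those 2 were called by DESeq2, and so was Atf3, a stress-induced transcription factor gene named here after its values were seen, at 6.25, 6.95 and 3.44 CPM in the controls and 11.9, 26.8 and 6.97 CPM in the knockdown samples. Its log2 fold change was 1.48 (SE 0.49, edgeR adjusted p = 0.246), in the opposite direction.

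A list of 22 chaperones of the cytosol and mitochondria, outside the ER, held 1 called gene. Dnajb1, the main cytosolic J-domain partner of HSP70, fell from 66.4, 56.1 and 75.9 CPM in the controls to 19.8, 32.5 and 23.5 CPM in the knockdown samples (log2 fold change -1.39, SE 0.22, edgeR adjusted p = 0.0333). The median of the list was -0.13, with 15 of the 22 below 0. Dnajb1 lies on chromosome 8, and with the chromosome medians removed its log2 fold change was -0.99 and it was no longer called (edgeR adjusted p = 0.152). Other settings that lost the call included library sizes alone (0.169) and leaving out control 1, 2 or 3 (0.132, 0.106 and 0.175). Over the 16 alternatives its adjusted p ran from 1.06e-05 to 0.175, 10 of the 16 passed and the sign was negative in all 16.

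**Figure D5:**
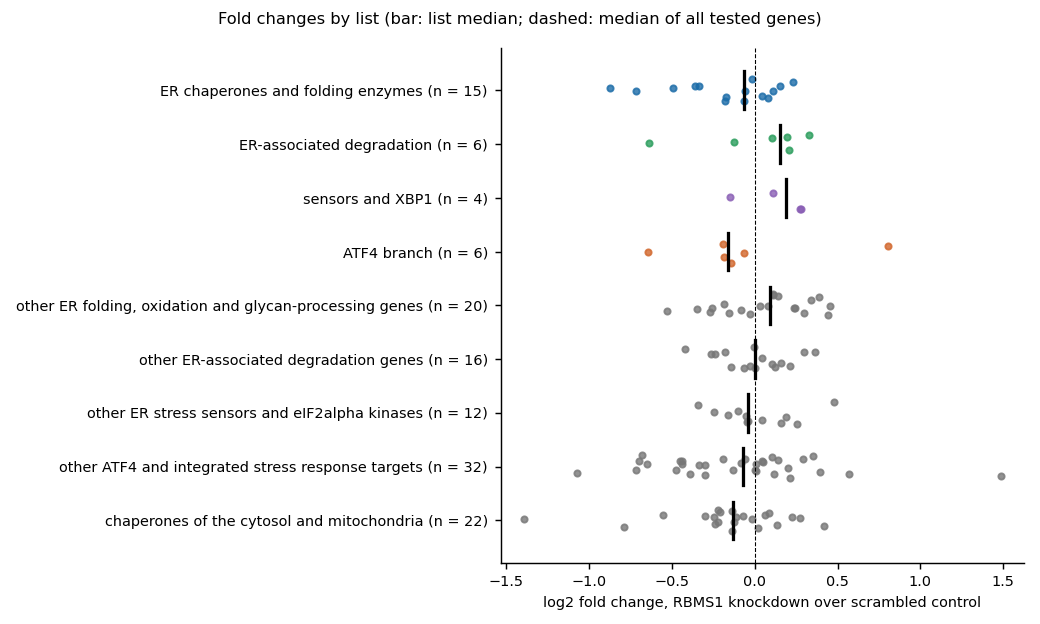
Log2 fold change, RBMS1 knockdown over scrambled control, of each tested gene in the 4 groups (coloured) and in 5 further lists (grey), with the median of each list as a bar and the median of all tested genes dashed. List medians lie between -0.16 (ATF4 branch) and 0.19 (sensors and Xbp1), and the dashed line at 0.0044.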

How the data were processed

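The samples were 6 cultures of 3T3-L1 cells at day 7, 3 with a scrambled and 3 with an Rbms1 shRNA, measured by RNA-seq. Per the submitters' processing notes, the authors used Trim Galore 0.6.7, STAR 2.7.10a, Salmon 1.9.0 and the mouse build GRCm38. The deposited values are estimated counts per gene, not normalised, and were rounded to whole numbers here. Members and all gene lists were chosen with earlier results of these data known. Genes passing edgeR's filterByExpr were scaled by TMM and tested by edgeR 4.0.16 (quasi-likelihood, groups only, Benjamini-Hochberg over all 11440 genes) in R 4.3.3, with calls at an adjusted p of 0.1; 53 genes passed 0.05, none of them a member. SEs and 95% intervals come from that fit. Calls and the direction of called genes were checked on simulated data, but the SEs and intervals were not. CPM uses TMM-scaled libraries. DESeq2 1.42.0, another scaling, other filters, a replicate block, removal of chromosome medians, of genes derived from ribosomal RNA or of a GC and length trend, and leaving out each sample were alternatives. The limit of 3 counts covers counting error only. Positions and exon lengths are from GENCODE M21. Named are all members, called genes of other lists (the 2 smallest p-values where none was called), Rbms1 and fixed markers; 1 gene that this rule names is not reported here. The same-numbered samples were not treated as pairs.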

Additional observations from a re-analysis of the deposited data

How the results depend on the processing

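The log2 fold changes of Dnajb9, Calr, Herpud1, Sdf2l1 and Ppp1r15a were negative in all 16 alternatives. Those of Pdia3, Dnajb11, Hyou1, Edem1, Sel1l, Derl2, Atf6, Eif2ak3 and Trib3 were positive in all 16. Against 140 genes called in all, 431 were called by DESeq2, 268 with no filter on low counts, 73 with chromosome medians removed and 12 (without control 2) to 696 (without knockdown 1) when 1 sample was left out. Against 1 member called, there were 3 by DESeq2, 0 with library sizes alone (Dnajb9 at adjusted p = 0.372) and 0 to 2 when 1 sample was left out. Counting Dnajb1, other pathway genes called numbered 1, but 4 by DESeq2, 0 with chromosome medians removed and 0 to 6 with 1 sample left out. Library sizes alone moved the median of all genes by 0.37 on the log2 scale, and the medians of the chaperones, degradation genes, sensors and ATF4 branch to 0.32, 0.50, 0.57 and 0.19, or -0.05, 0.13, 0.19 and -0.18 relative to all genes. With 1 sample left out the median of the chaperones ran from -0.19 to -0.040 and that of the degradation genes from -0.087 to 0.25. That of the sensors and Xbp1 ran from -0.038 (without knockdown 1) to 0.38 (without knockdown 3), and that of the ATF4 branch from -0.32 (without knockdown 1) to 0.093 (without knockdown 3). An earlier form of edgeR's estimate, added after the data were seen, called 122 genes and the same member.

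With the replicate number as a replicate block, 39 genes, 0 members (Dnajb9 at adjusted p = 0.214) and 0 other pathway genes (Dnajb1 at adjusted p = 0.111) were called. Over all genes tested, same-numbered samples correlated at -0.14, 0.08 and -0.03 in their deviations from the group means, so the numbers were not taken to pair samples. In the ATF4 branch the block lowered the SE of Ddit3 from 0.35 to 0.17 and of Chac1 from 0.35 to 0.24. It lowered that of Ppp1r15a from 0.34 to 0.25, of Trib3 from 0.37 to 0.30 and of Atf4 from 0.20 to 0.15. The SE of Asns stayed at 0.18. The cause of the other changes was not tested. Depth limits Sdf2l1 and Creld2 (23 to 179 counts).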
